A study of Mus musculus with 6 samples.

Results

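The variable (Trav) and joining (Traj) gene segments of the mouse T cell receptor alpha locus were described in 6 RNA-seq libraries. They were every row of the count table whose Ensembl identifier maps to a symbol starting with Trav or Traj, which gave 175 of 32377 rows: 118 Trav segments of 22 families and 57 Traj segments. The annotation used for their order lists 188 such segments. The identifiers of the other 13 (10 Trav and 3 Traj, namely Traj53, Traj54 and Traj55) had no row in the count table. The rule uses names only.

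The study set regulatory T cells (Treg) that are TNFR2-deficient Treg against TNFR2 positive Treg, with 3 libraries in each group. TNFR2 is the receptor for tumour necrosis factor encoded by Tnfrsf1b, and the series concerns TRIP13, Foxp3-expressing Treg and the stability of HAT1. The labels give a cell type and a replicate number for each library and name no tissue, strain, age, sex, sort or treatment, nor how the deficiency arose. Nothing in them tells whether replicates are different animals or cultures, and the p-values below rest on a spread among libraries that may be technical.

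Total counts ran from 19296082 to 24038118 per library. Levels are CPM (counts scaled to a common library total) scaled by TMM, and a count of 3 was worth 0.125 to 0.155 CPM before that scaling. The libraries labelled TNFR2-deficient went against the cell type of their label. Foxp3, the defining transcription factor of Treg, was at 1.44 ± 0.0974 CPM (SD, n = 3) in them and at 75.5 ± 2.14 in the TNFR2 positive libraries, and 5 of 5 Treg markers were lower (34.2% of all 17022 genes tested were, at an edgeR adjusted p below 0.05). Tnfrsf1b was at 7.87 ± 0.503 CPM against 83.0 ± 2.48, while 7 of 7 markers of double-positive thymocytes were higher (beside 35.1% of all genes), their summed level being 2253 to 2339 CPM against 113.1 to 124.6. Markers of B cells were abundant in all libraries (14133 to 15049 CPM against 10729 to 11796), and red cell markers (4 globins and Alas2) summed to 17952 to 20506 CPM against 4220 to 6990. TNFR2 positive library 1 stood apart from its replicates: a chi-square statistic per gene, near 1 when libraries differ by counting noise, was 16.0 and 21.3 against libraries 2 and 3, 2.59 between those, and 2.42 to 4.63 within the other group. The contribution of the mix of cells to any result below was not tested.

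The alpha chain of the T cell receptor is assembled in the thymus by the RAG recombinase, which joins a Trav segment to a Traj segment, and splicing then joins that exon to the constant region, Trac. Trav segments lie upstream and Traj segments lie between them and Trac, numbered so that Traj61 faces the Trav segments and Traj1 is next to Trac. Rearrangement in double-positive thymocytes starts from the Trav segments nearest to the J cluster and the high-numbered Traj segments, and repeated rounds on the same allele bring more distant Trav segments to lower-numbered Traj segments. In the mouse strain of the reference genome, stretches of the Trav region are repeated, and the copies carry the letters d and n in their names. In bulk RNA, fewer cells of a type and less RNA per cell cannot be told apart.

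Traj segments are short (29 to 72 bases, median 61), and most carry the letters behind the Phe-Gly motif that defines a J segment. A search on both strands for TTTGG or TTCGG followed by any 4 bases and GG, 2 forms that cannot match at the same base, found 1 of them in 42 of 51 annotated J genes and in 1 of 9 J pseudogenes. It found 0 on the opposite strand. The following Traj segments are shown because the results turn on them, from the GENCODE M21 transcripts (GRCm38), 5′ to 3′, with the motif in capitals. Traj3 and Traj1 hold no match to these letters, and Traj1, the shortest, is annotated as a pseudogene.
Traj58: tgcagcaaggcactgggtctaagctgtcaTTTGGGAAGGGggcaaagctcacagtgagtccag
Traj7: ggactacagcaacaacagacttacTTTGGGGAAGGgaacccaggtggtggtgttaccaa
Traj6: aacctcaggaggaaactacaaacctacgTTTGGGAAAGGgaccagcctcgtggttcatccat
Traj3: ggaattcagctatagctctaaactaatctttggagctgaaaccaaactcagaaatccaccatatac
Traj2: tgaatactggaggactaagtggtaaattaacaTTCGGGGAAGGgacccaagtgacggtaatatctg
Traj1: gtgtgcagatagctgctccatctttcctg

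Trav segments had a median exonic length of 364 bases (155 to 595), and many have a near-identical copy. The pair below is shown because it sets the limit on single Trav values. Trav13d-1 and Trav13n-1 differed at 1 base of 331 coding bases, and bases 130 to 250 of each are printed from the same transcripts with the differing base in capitals.
Trav13d-1: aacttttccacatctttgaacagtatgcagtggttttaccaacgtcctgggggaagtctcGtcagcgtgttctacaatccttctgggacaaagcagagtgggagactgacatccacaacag
Trav13n-1: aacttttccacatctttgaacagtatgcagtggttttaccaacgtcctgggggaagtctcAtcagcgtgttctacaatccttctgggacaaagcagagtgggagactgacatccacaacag
In the deposited counts Trav13d-1 had 9, 9 and 8 counts in the TNFR2-deficient libraries and 6, 4 and 4 in the TNFR2 positive ones. Trav13n-1 had 14, 11 and 11 against 4, 4 and 6. Of the 118 Trav segments, 32 formed 16 pairs with identical sequence, compared on coding parts where both had one and otherwise on whole transcripts. Trav4d-3 and Trav4n-3 were such a pair and had 16, 23 and 24 against 12, 6 and 7 counts and 16, 22 and 22 against 12, 6 and 7. Across libraries, 68 of 91 such pairs of values (74.7%) lay within 2 counts of each other. The squared difference over the sum, which averages about 1 for independent counts, averaged 0.495. Copies are therefore not independent measurements. Counts of called segments below list each copy on its own unless said to be joined, and sums are also given with each identical sequence counted once, over 102 distinct Trav sequences.

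The summed Trav level was higher in the TNFR2-deficient libraries and the summed Traj level was lower. Trav segments together were at 99.5, 101.4 and 106.8 CPM in TNFR2-deficient libraries 1 to 3 and at 88.2, 76.9 and 65.4 CPM in the TNFR2 positive libraries. The groups did not overlap, and the means, 102.5 ± 3.79 and 76.8 ± 11.4 CPM (SD, n = 3), differed 1.33-fold. With identical copies counted once the means were 85.1 ± 2.53 and 63.9 ± 8.92 CPM, the same 1.33-fold. Traj segments together were at 2.94, 3.25 and 3.78 CPM against 21.1, 12.1 and 9.69 CPM. All 3 TNFR2 positive libraries were above the others, library 1 most, and the mean was 4.30-fold higher (14.3 ± 6.03 against 3.32 ± 0.426 CPM). No p-value is given for these sums, since they run over members chosen with earlier results known.

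Set against the constant region the 2 sums behaved differently. Trac was at 204.8, 212.7 and 208.2 CPM against 142.5, 141.5 and 139.2 CPM, 1.48-fold higher in the TNFR2-deficient libraries (adjusted p = 3.24e-06, edgeR quasi-likelihood test with Benjamini-Hochberg adjustment). Trav counts came to 48.6%, 47.7% and 51.3% of Trac counts in the TNFR2-deficient libraries and to 61.9%, 54.4% and 47.0% in the TNFR2 positive libraries, so that the groups overlapped and the order of the means was turned. The log2 ratio of the summed Trav level was 0.42 in CPM and -0.15 relative to Trac. Traj counts were 1.44%, 1.53% and 1.82% of Trac counts against 14.8%, 8.54% and 6.96%, with no overlap. The constant regions Trac, Trdc, Trbc1, Trbc2 and the pre-T alpha chain Ptcra were higher in 5 of 5 cases by the same test, beside 35.1% of all 17022 genes tested.

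**Figure D1:**
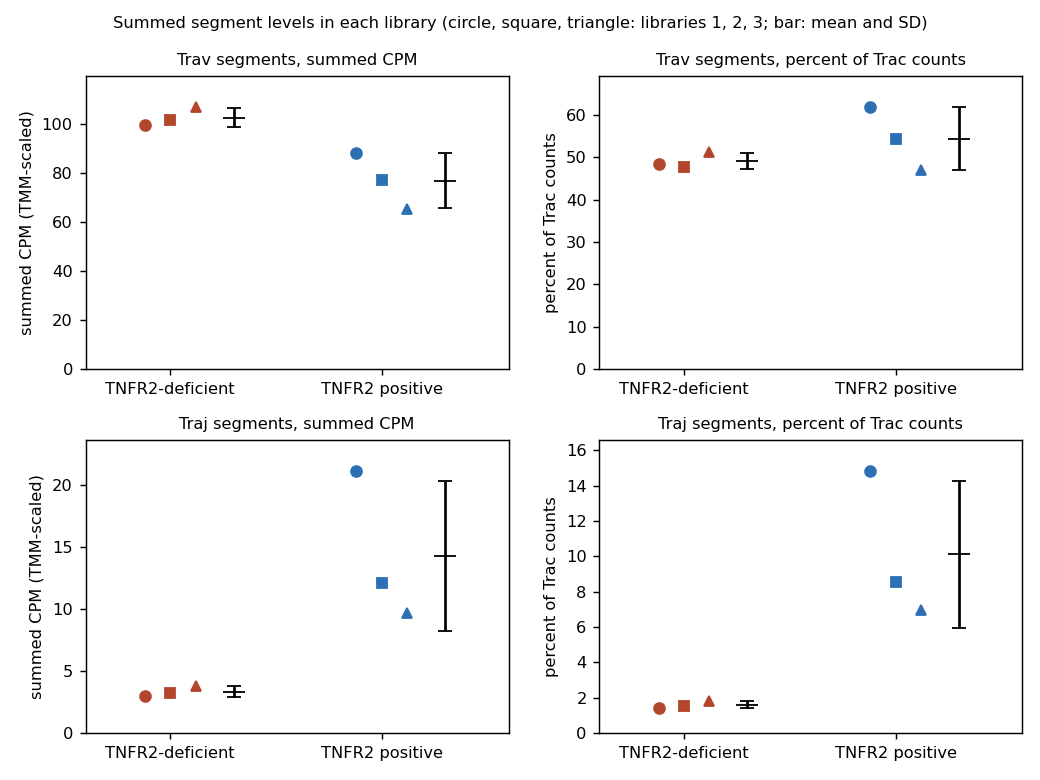
Summed Trav (top) and Traj (bottom) levels in each library, as TMM-scaled CPM (left) and as percent of Trac counts (right). Points are libraries 1, 2 and 3 of each group, and bars give the mean and SD. The Trav CPM groups did not overlap but the Trav percentages of Trac did, while the 3 TNFR2 positive libraries had the higher Traj sum on both scales.

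Few of the counts behind these sums fell on Traj segments. A TNFR2-deficient library held 68, 72 and 91 Traj counts (libraries 1 to 3) and a TNFR2 positive library 493, 236 and 207, against 2300, 2247 and 2568 and 2058, 1504 and 1397 Trav counts. Traj segments with at least 1 count numbered 33, 36 and 40 of 57 against 51, 41 and 38, and 19 were detected in all 3 TNFR2-deficient libraries against 31 in all 3 TNFR2 positive libraries. Trav segments with at least 1 count numbered 113, 112 and 111 of 118 against 112, 109 and 106. Detection of Traj segments overlapped between the groups, and that of Trav segments did too.

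The Traj counts of the 2 groups were spread differently along the J cluster. In the TNFR2 positive libraries the mean level was higher in each successive block from the Trav side to Trac, and in the TNFR2-deficient libraries it was low in all blocks. The 9 segments from Traj61 to Traj50 summed to 0.432, 0.361 and 0.499 CPM in the TNFR2-deficient libraries and to 0.514, 0.205 and 0.0468 CPM in the TNFR2 positive libraries. The ratio of the TNFR2 positive mean to the TNFR2-deficient mean was 0.593 there, with overlapping groups. It was 1.74 for Traj49 to Traj40, 1.69 for Traj39 to Traj30 and 4.14 for Traj29 to Traj20. It reached 5.92 for Traj19 to Traj11 and 8.94 for Traj9 to Traj1, where the libraries were at 0.562, 0.857 and 0.956 against 9.81, 6.60 and 4.82 CPM. In every block from Traj49 to Traj1 each TNFR2 positive library was above each TNFR2-deficient library. Over the 57 segments, Spearman's rho between locus order and count was 0.184, 0.225 and 0.164 in the TNFR2-deficient libraries and 0.867, 0.699 and 0.735 in the TNFR2 positive libraries. These correlations are across segments of the same libraries, with few counts each in the TNFR2-deficient group, and serve as a description. The 7 Traj pseudogenes had 28 counts in the TNFR2-deficient and 118 in the TNFR2 positive libraries, a CPM ratio of 0.220. The 50 Traj genes had 203 and 818 counts, a similar ratio of 0.234. Of the pseudogene counts, Traj1 alone supplied 12 in the TNFR2-deficient and 72 in the TNFR2 positive libraries. The pseudogene sum was also uneven among the TNFR2-deficient libraries (0.397 ± 0.348 CPM, SD, n = 3). Whether Traj counts came from rearranged transcripts was not tested.

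**Figure D2:**
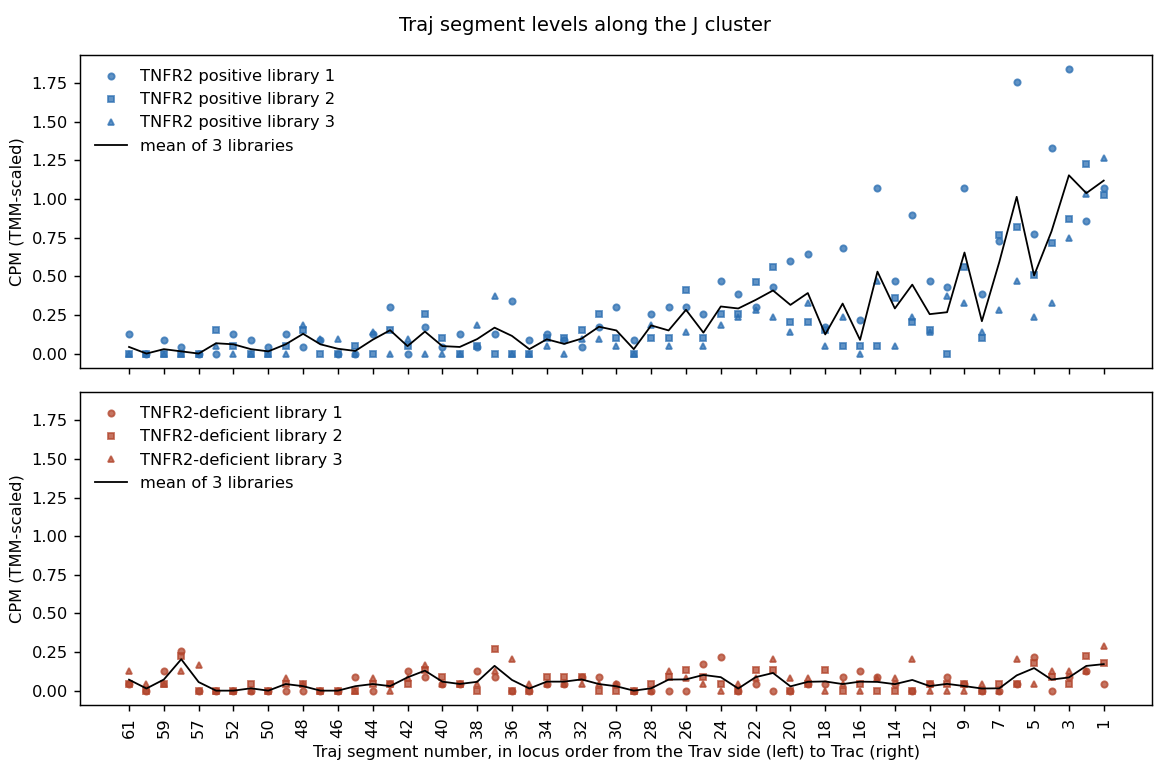
TMM-scaled CPM of each Traj segment (57 in all) in locus order, from the Trav side at left to Trac at right, for the TNFR2 positive (top) and TNFR2-deficient (bottom) libraries. Symbols are the 3 libraries and the line is their mean; the TNFR2 positive mean climbs to 1.15 CPM at Traj3, and no TNFR2-deficient mean exceeds 0.203 CPM (Traj58).

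As shares of all Traj counts the groups separated in each stretch of the cluster. Traj61 to Traj49 (10 segments) held 14.7%, 12.5% and 15.4% of Traj counts in the TNFR2-deficient libraries and 3.04%, 2.12% and 0.483% in the TNFR2 positive libraries. The exact 95% binomial (Clopper-Pearson) intervals, which cover counting error only, ran from 5.88% to 25.4% over the former and from 0.0122% to 4.97% over the latter. Traj58 supplied 14 of the 33 TNFR2-deficient counts there, and without the most abundant segment of each group, Traj58 and Traj3, the difference of the mean shares was 6.58 percentage points in place of 12.3. Traj48 to Traj25 (24 segments) held 38.2%, 41.7% and 35.2% against 16.2%, 18.6% and 19.3%. Both stretches thus had the larger share in the TNFR2-deficient libraries, although Traj48 to Traj25 was 1.98-fold higher in CPM in the TNFR2 positive libraries. Traj24 to Traj1 (23 segments) held 47.1%, 45.8% and 49.5% against 80.7%, 79.2% and 80.2%. Here the means were 47.4% ± 1.84 and 80.1% ± 0.756 (SD, n = 3), and the level was 7.25-fold higher in the TNFR2 positive libraries. The count-weighted mean segment number was 28.1, 26.3 and 26.5 against 15.1, 14.5 and 14.4. TNFR2 positive library 1, with the highest Traj sum, lay near libraries 2 and 3 in this number.

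**Figure D3:**
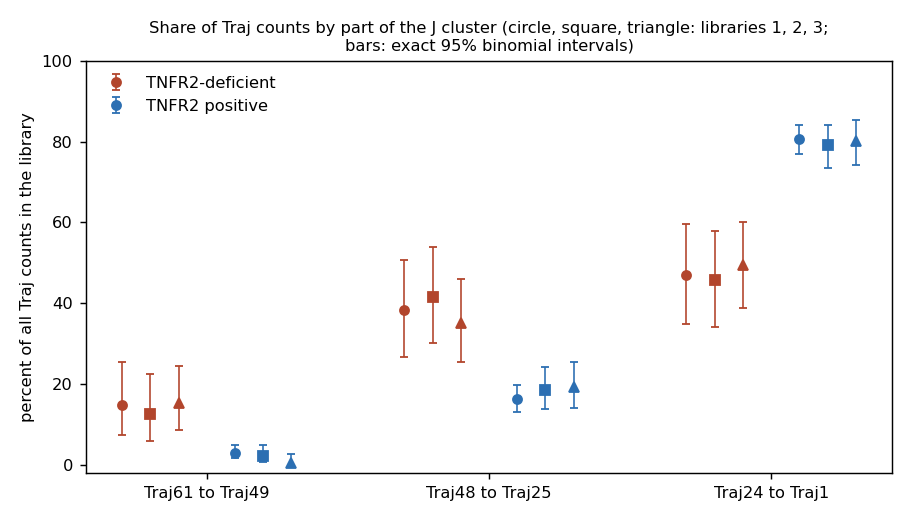
Percent of all Traj counts of a library in 3 stretches of the J cluster, for the TNFR2-deficient (red) and TNFR2 positive (blue) libraries. Bars are exact 95% binomial intervals; the Traj24 to Traj1 shares lie between 45.8% and 49.5% in the former and between 79.2% and 80.7% in the latter.

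Of 57 Traj segments, 4 passed the filter on low counts, all through the TNFR2 positive libraries: Traj1, Traj2, Traj3 and Traj6. Such segments had to differ, so that nothing is read from their 4 calls as lower in the TNFR2-deficient libraries (beside 34.2% of all genes). Their p-values are given from a fit of all 32377 rows with no filter. The choice of these 4 still came from the filter, so those p-values serve as a description only. Traj3 (ENSMUSG00000076925) had 2, 1 and 3 counts in the TNFR2-deficient libraries and 43, 17 and 16 in the TNFR2 positive libraries. The ratio of the pooled CPM was 13.7 with an exact 95% interval of 5.999 to 38.4, and the log2 fold change was -3.64 (SE 0.535, adjusted p = 8.0e-11, edgeR quasi-likelihood test with Benjamini-Hochberg adjustment). Traj6 (ENSMUSG00000076922) had 1, 1 and 5 counts against 41, 16 and 10 (log2 fold change -3.24, SE 0.539, edgeR adjusted p = 1.0e-08). In the filtered fit its log2 fold change of -3.28 became -2.60 without TNFR2 positive library 1 and -4.38 without TNFR2-deficient library 3. The 2 segments next to Trac were more even among the TNFR2 positive libraries. Traj2 (ENSMUSG00000076926) had 3, 5 and 3 counts against 20, 24 and 22 (log2 fold change -2.63, SE 0.493, edgeR adjusted p = 5.0e-07). Traj1 (ENSMUSG00000076927) had 1, 4 and 7 counts against 25, 20 and 27 (log2 fold change -2.63, SE 0.473, edgeR adjusted p = 1.5e-07). In the filtered fit its value of -2.66 became -3.28 without TNFR2-deficient library 3. For none of the 4 did the groups overlap, which their choice through the TNFR2 positive libraries also favoured.

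The same fit with no filter covered the other Traj segments. In it 21 of 57 Traj segments were lower in the TNFR2-deficient libraries (36.8%, beside 20.6% of all rows) and 1 was higher (beside 20.4%), at an edgeR adjusted p below 0.05. Of the 21, 20 belonged to the 23 segments from Traj24 to Traj1, and the other was Traj28. In the stretch next to Trac, Traj4 had 0, 2 and 3 counts against 31, 14 and 7, and Traj5 had 5, 4 and 1 against 18, 10 and 5. Neither overlapped between groups, although Traj5 came to the same count, 5, in TNFR2-deficient library 1 and TNFR2 positive library 3. Traj7, printed above because its counts were nearly all in the TNFR2 positive group, had 0, 1 and 0 counts against 17, 15 and 6, and was chosen after its values were seen. Of the segments from Traj24 to Traj1 that did not pass, Traj18 had 1, 3 and 0 counts against 4, 3 and 1, Traj16 had 3, 1 and 0 against 5, 1 and 0, and Traj24 had 5, 1 and 0 against 11, 5 and 4. These 3 overlapped between groups.

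The 1 Traj segment higher in the TNFR2-deficient libraries was Traj58 (ENSMUSG00000076875), at the far end of the cluster. It had 6, 5 and 3 counts against 1, 0 and 0, with no overlap. The pooled ratio was 13.0 with an exact 95% interval of 1.97 to 548.4, and in the unfiltered fit its log2 fold change was 3.33 (edgeR adjusted p = 0.021). Its neighbours were sparse in both groups. Traj61 had 1, 1 and 3 counts against 3, 0 and 0. Traj57 had 0, 0 and 4 against 0, 0 and 0, and Traj56 had 0, 0 and 0 against 0, 3 and 1. Traj50 had 1 count in all, in TNFR2 positive library 1, and Traj49 had 0, 1 and 2 against 3, 1 and 0. None of these 5 passed in the unfiltered fit, and at this depth a difference in them was not detectable. By mean level, Traj58 led in the TNFR2-deficient libraries (0.203 CPM) and Traj3 in the TNFR2 positive libraries (1.15 CPM). Per kb of segment, a scale whose fit to segments this short was not tested, Traj1, Traj58 and Traj37 were highest in the TNFR2-deficient libraries (5.92, 3.23 and 2.68 CPM per kb, median of the 57 segments 0.921). In the TNFR2 positive libraries Traj1, Traj3 and Traj6 were highest (38.6, 17.5 and 16.4 CPM per kb, median 2.54).

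Trav segments differed less between the groups. Of 118 segments, 79 passed the filter, and 16 of those (20.3%) were higher in the TNFR2-deficient libraries, beside 35.1% of all genes tested. None was lower at an edgeR adjusted p below 0.05, beside 34.2% of all genes. The count of lower segments was also 0 at an unadjusted p below 0.05, with DESeq2 and with limma-voom. The count of higher segments was 9 with DESeq2, 10 without TNFR2-deficient library 1 and 25 without TNFR2 positive library 1, and the count of lower segments was 1 without TNFR2-deficient library 3. The share of higher calls among Trav segments was below that of all genes, and the median log2 fold change was 0.45 with 64 of 79 values above 0. Over the 118 segments the median level was low, 0.741 CPM in the TNFR2-deficient and 0.478 CPM in the TNFR2 positive libraries. The part of low counts in the shares of calls was not tested. In 21 of the 79 every TNFR2-deficient library was above every TNFR2 positive library (beside 38.2% of all genes), and in 1, Trav16n, all were below (beside 36.3%). Trav16n had 27, 26 and 36 counts against 41, 31 and 38, and its log2 fold change of -0.41 did not pass (edgeR adjusted p = 0.128). In the fit with no filter 20 of 118 (16.9%) were higher, beside 20.4% of all rows, and 0 lower, beside 20.6%.

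The largest changes among called Trav segments without overlap were in Trav5d-4, Trav7n-6, Trav6-3, Trav13n-1 and Trav4d-3. Trav5d-4 had 11, 24 and 30 counts in the TNFR2-deficient libraries and 8, 3 and 6 in the TNFR2 positive libraries (log2 fold change 1.81, SE 0.460, edgeR adjusted p = 0.00407). Its identical copy Trav5n-4 had 12, 13 and 32 counts against 17, 3 and 3, with overlapping groups, and was not called. The call and the lack of overlap thus held for Trav5d-4 and not for its copy. Trav7n-6 had 27, 27 and 40 counts against 12, 8 and 9 (log2 fold change 1.57, SE 0.307, edgeR adjusted p = 0.000669). Trav6-3 had 36, 60 and 55 counts against 13, 14 and 22 (log2 fold change 1.51, SE 0.307, edgeR adjusted p = 0.000918). The lowest TNFR2-deficient library was above the highest TNFR2 positive library in Trav5d-4, Trav7n-6 and Trav6-3, by the least margin in Trav5d-4. Trav13n-1, with the counts given beside its sequence, had a log2 fold change of 1.23 (edgeR adjusted p = 0.0169), and its copy Trav13d-1 had too few counts for the test. The call on Trav13n-1 was lost with DESeq2 (adjusted p = 0.104) and in the fit with no filter (edgeR adjusted p = 0.0564). Trav4d-3 had a log2 fold change of 1.22 (edgeR adjusted p = 0.00865) and its identical copy Trav4n-3 one of 1.15; with identical sequence and nearly equal counts they are not 2 independent results. When identical copies were joined, 13 of 67 tested Trav sequences were higher, beside 5984 of all 17010 genes tested in that fit.

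The Trav segments with the highest level were not the same in both groups. Per kb, Trav6n-7, Trav6d-7 and Trav6d-6 led in the TNFR2-deficient libraries (9.58, 9.54 and 6.31 CPM per kb, median 1.83), and Trav7-2, Trav7d-2 and Trav6d-6 in the TNFR2 positive libraries (5.52, 5.46 and 5.20 CPM per kb, median 1.19). Trav6n-7 had 85, 83 and 69 counts against 45, 41 and 21 and was 2.05-fold higher in the TNFR2-deficient libraries (edgeR adjusted p = 0.00334). Its near copy Trav6d-7 had 84, 93 and 58 against 46, 40 and 21 (2.04-fold, edgeR adjusted p = 0.00681). With such close counts Trav6n-7 and Trav6d-7 are not 2 independent results. Both transcripts were 358 bases long, but the annotated coding parts compared were 350 and 338 bases. This pair was therefore not joined among the identical copies. Trav7-2 had 35, 49 and 45 counts against 45, 39 and 35, with overlapping groups (log2 fold change 0.0075, edgeR adjusted p = 0.977). Trav14d-1, also among the 5 most abundant of each group, had 46, 57 and 49 counts against 55, 48 and 35, again with overlap (log2 fold change 0.03, edgeR adjusted p = 0.907). The order of the 118 segments was otherwise similar, with a Spearman's rho of 0.898 between the group means across segments, given as a description. No few segments dominated: 28 segments made up 50% of Trav counts in the TNFR2-deficient libraries and 27 in the TNFR2 positive libraries, while for Traj it took 14 and 9.

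Along the locus, most of the higher calls fell on Trav segments farther from the J cluster, a difference between stretches that was not tested. The segments were divided in locus order into the 39 farthest, the 39 in the middle and the 40 nearest to the J cluster. Of the farthest, 6 of 26 tested were higher (median log2 fold change 0.54), of the middle 8 of 27 (0.61) and of the nearest 2 of 26 (0.15), namely Trav13-1 and Trav14-1. These are 23.1%, 29.6% and 7.69% of the segments tested, all below the 35.1% of all genes. Of the d copies tested 7 of 26 were higher, of the n copies 6 of 22 and of segments with neither letter 3 of 31 (beside the same 35.1%). The nearest stretch holds no d or n copy, so position and copy status were not separated. The identical Trav4d-3 and Trav4n-3 count once each in the farthest and the middle stretch. Summed levels were 35.0 ± 1.005 against 25.1 ± 4.30 CPM in the farthest, 37.5 ± 2.55 against 26.3 ± 4.13 in the middle and 30.1 ± 2.02 against 25.5 ± 3.06 in the nearest segments (SD, n = 3). The nearest segments held 31.1%, 27.4% and 29.5% of Trav counts in the TNFR2-deficient libraries and 32.3%, 33.2% and 34.2% in the TNFR2 positive libraries. These shares did not overlap, by a gap that was small beside the exact 95% intervals of single libraries (29.2% to 33.0% in TNFR2-deficient library 1, 30.3% to 34.4% in TNFR2 positive library 1). When the nearer 50% of segments was taken instead, the difference of the mean shares was -1.33 percentage points in place of -3.93. Between level and position, Spearman's rho was -0.022 in the TNFR2-deficient and 0.022 in the TNFR2 positive group means over 118 segments.

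**Figure D4:**
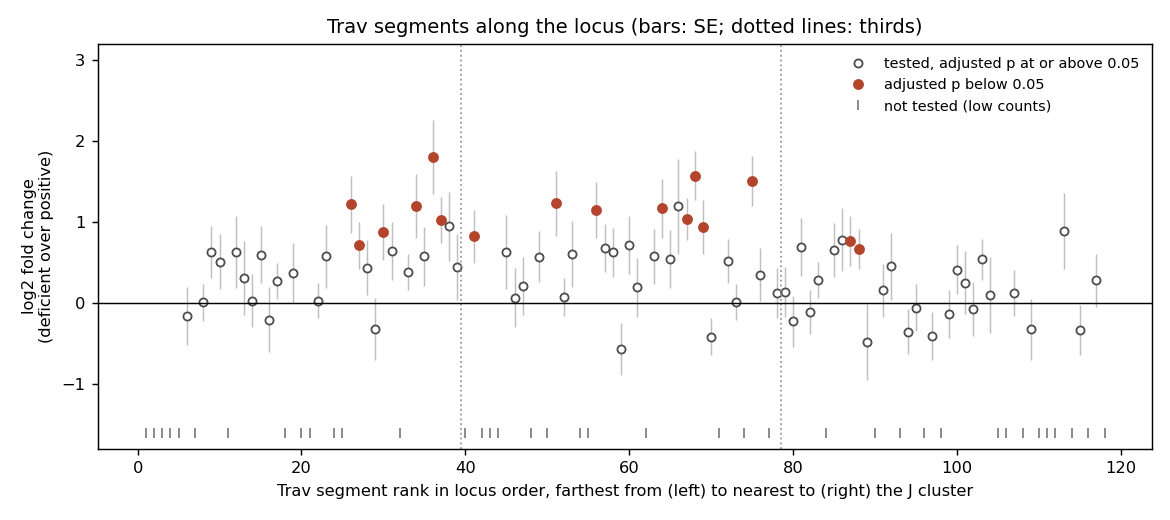
Log2 fold change (TNFR2-deficient over TNFR2 positive) with SE of the 79 tested Trav segments by rank in locus order, the J cluster lying to the right. Filled points passed an edgeR adjusted p of 0.05, and ticks mark segments not tested. Dotted lines bound the 39 farthest, 39 middle and 40 nearest segments. Of the 16 filled points 14 lie left of the second line, with identical and near copies plotted as separate points.

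The ends of the Trav region were sparse. Trav1, the farthest segment, had 15, 15 and 8 counts against 5, 4 and 3, without overlap, and passed in the fit with no filter (log2 fold change 1.56, edgeR adjusted p = 0.016). Trav2 had 3, 9 and 6 counts against 5, 10 and 6, and Trav3-1 had 3, 7 and 9 against 4, 4 and 5. At the near end, Trav21-dv12, a segment that is also used in delta chains, had 16, 21 and 29 counts against 13, 16 and 21 with overlap (log2 fold change 0.28, edgeR adjusted p = 0.466). Trav20 had 3, 3 and 5 counts against 2, 0 and 0, and Trav23 had 4, 0 and 1 against 0, 1 and 1. Of these 6, Trav1 alone passed in the unfiltered fit.

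By family, 8 of 22 had every TNFR2-deficient library above every TNFR2 positive library (Trav1, Trav3, Trav4, Trav6, Trav8, Trav9, Trav13 and Trav20), and none had the reverse. Over all genes tested 38.2% were higher without overlap and 36.3% lower. The count of higher families was thus near that share, although it is a share of single genes and families are sums over segments. Trav6, the most abundant family with 15 segments, was at 21.5, 21.2 and 20.4 CPM against 15.4, 12.5 and 11.3 CPM, 1.61-fold higher in the mean. Trav13 was at 5.71, 4.56 and 5.95 CPM against 3.21, 3.94 and 2.62 CPM, a ratio of 1.66. Families with little difference included Trav10 (2.01 ± 0.238 against 2.15 ± 0.160 CPM), Trav16 (3.35 ± 0.431 against 3.46 ± 0.0653) and Trav19 (0.674 ± 0.125 against 0.845 ± 0.182), whose groups overlapped. The d copies together were 1.42-fold and the n copies 1.44-fold higher in the TNFR2-deficient libraries, while segments with neither letter were 1.21-fold higher. The 10 segments shared with the delta locus (dv in the symbol) were 1.30-fold higher and the 12 Trav pseudogenes 1.33-fold, the latter on 66 and 46 counts in all.

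**Figure D5:**
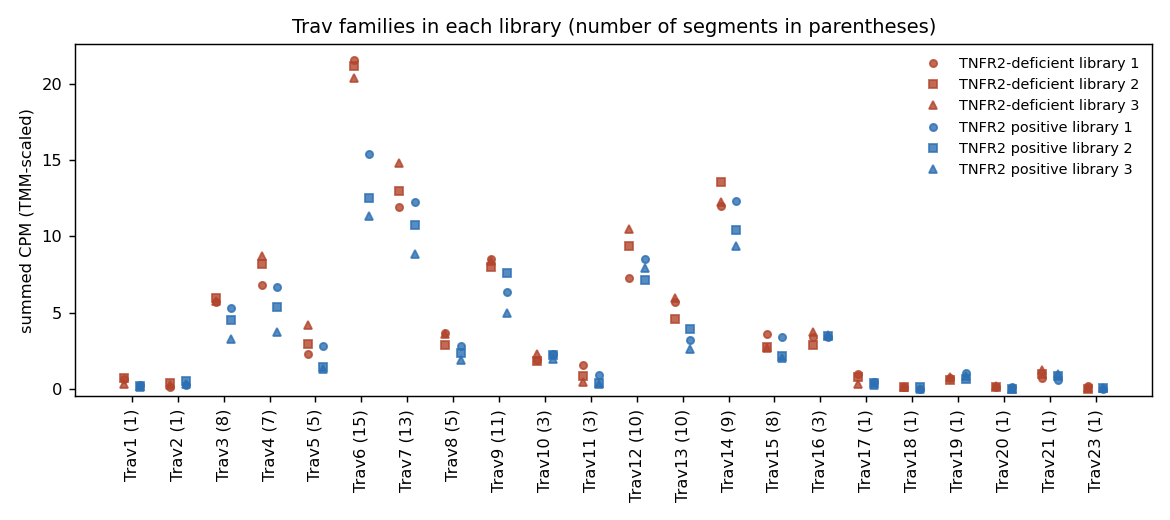
Summed TMM-scaled CPM of the 22 Trav families in each library, TNFR2-deficient in red and TNFR2 positive in blue, with the number of segments in parentheses. Trav6 has the highest sums and separates the groups (20.4 to 21.5 against 11.3 to 15.4 CPM), and the points of Trav10 and Trav16 lie over each other.

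The segments of the invariant receptors were few in both groups. Invariant NKT cells, which recognise lipids, join Trav11 to Traj18, and MAIT cells join Trav1 to Traj33. Trav11 had 17, 5 and 4 counts against 11, 4 and 3, and its copy Trav11d had 18, 10 and 2 against 9, 4 and 3. Traj33 had 1, 2 and 1 counts against 2, 2 and 0. Together with Traj18, these 4 segments overlapped between the groups and did not pass in the unfiltered fit. Trav1, given above, did not overlap and was higher in the TNFR2-deficient libraries in that fit, and library 1 had the highest Trav11 and Trav11d counts of each group. Of the other genes listed for these cells, Zbtb16 and Klrb1c were lower in the TNFR2-deficient libraries (log2 fold changes -2.05 and -1.30, beside 34.2% of all genes). Mr1, which presents antigen to MAIT cells and does not mark them, was higher (1.97, beside 35.1%).

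The genes that assemble the alpha chain and the factors that act on its locus were taken from a list. In the TNFR2-deficient libraries, 10 of 15 recombinase and end-joining genes were higher and 3 lower. The recombinase Rag1 was at 965.8, 834.2 and 953.7 CPM against 3.34, 3.22 and 3.37 CPM, and Rag2 at 59.3, 57.3 and 57.96 against 0, 0.205 and 0.375 CPM. Dntt, the terminal transferase that adds bases at the joins, was at 489.2 ± 9.94 against 2.05 ± 0.283 CPM, and Prkdc, the kinase of end joining, was lower (34.1 ± 2.45 against 97.0 ± 27.6 CPM). Of 17 factors that act on the locus, 4 were higher and 9 lower. Smc1a, a cohesin subunit, was at 124.7 ± 1.73 against 206.0 ± 9.04 CPM and Ets1, which binds the Tcra enhancer, at 919.7 ± 29.5 against 1293 ± 77.1 CPM. Over the 32 genes the median log2 fold change was 0.14, with 14 higher (beside 35.1%) and 12 lower (beside 34.2%) by the edgeR test.

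Other values moved with the groups beside the segments. Trdc, the delta constant region, was at 28.95 ± 1.62 against 13.9 ± 1.33 CPM, and of 6 markers of gamma delta T cells 5 were higher (beside 35.1% of all genes) and 0 lower (beside 34.2%), their sum being 52.6 to 55.7 against 28.7 to 31.3 CPM. Of 6 T cell markers 6 were higher in the TNFR2-deficient libraries (beside 35.1%), with sums of 2137 to 2196 against 695.0 to 727.7 CPM. The list includes Cd4 and Cd8a, which were 4.71-fold and 4.59-fold higher. Cd3d, Cd3e, Cd3g and Lck were 1.99-, 1.89-, 2.02- and 2.56-fold higher. Rag2 and Ptcra were at 0 in a TNFR2 positive library. Malat1, an RNA kept in the nucleus, was at 377.7, 413.6 and 322.6 CPM against 2009, 1585 and 1556 CPM, and so was highest in TNFR2 positive library 1, the library with the highest Traj sum. Of 2 other RNAs kept in the nucleus, which like Malat1 were chosen after values were seen, Neat1 was higher in the TNFR2-deficient libraries (log2 fold change 0.18, edgeR adjusted p = 0.0398) and Kcnq1ot1 did not pass (0.03). The part of these markers in the segment results was not tested.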

How the data were processed

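TRIzol extracts were selected for mRNA with oligo-dT beads, fragmented and, after adapter ligation, PCR-amplified, per the labels' protocols, which mention no molecular identifiers. HISAT2 2.1.0 and the build GRCm39 were used, per the submitters' processing notes. Not given in the sources used here are how reads were counted, against which annotation, with what strand setting and with what rule for multiply mapped reads. The authors deposited whole-number counts per gene without normalization, and columns were matched to samples by name. Intervals cover counting error only, because PCR copies of a molecule cannot be told apart.

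Segments were matched by Ensembl identifier to GENCODE M21 (GRCm38), which gave symbols, locus order, lengths and sequences. No coordinates are printed, because that build is not the one of the counts. The quasi-likelihood test of edgeR 4.0.16 (R 4.3.3) was run on group alone after filterByExpr and TMM. Benjamini-Hochberg adjustment covered the 17022 genes left, and an adjusted p below 0.05 was called. The procedure was tested on simulated data. Sums and shares were computed in Python 3.11.15 with pandas 2.3.3, and intervals with SciPy 1.17.1. Alternatives were DESeq2 1.42.0, limma-voom (limma 3.58.1), RLE and library-size scaling, other filters, the replicate number as a block, leaving out each library, removal of a relation to gene length and, chosen after seeing the data, the joining of identical copies.

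The members, the gene lists and the tests were chosen with earlier results of these data known. Named segments were the 5 Trav and 5 Traj with the highest mean level in each group, the 5 of each with the largest fold change in each direction among called segments without overlap, the segments at the ends of each cluster, Traj58, Traj57, Traj56, Traj50, Traj49 and those of invariant receptors. Others named in a count were chosen after their values were seen. Some of the context genes chosen by that procedure are not reported here. Replicates compared by chi-square over genes all differed by more than counting noise, so none was treated as a copy of another.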

Additional observations from a re-analysis of the deposited data

How the results depend on the processing

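Of the 16 Trav segments called higher, the count was 9 with DESeq2 and 8 with a filter of at least 1 CPM in 3 libraries, which tested 38 Trav segments. It ran from 10 (without TNFR2-deficient library 1) to 25 (without TNFR2 positive library 1) when a library was left out. The count of lower Trav segments ran from 0 to 1, the 1 appearing without TNFR2-deficient library 3. The 4 lower Traj segments became 21, with 1 higher, in the fit with no filter, and 1 with the 1 CPM filter, since these filters change which segments are tested. They ran from 4 to 9 on leaving out a library. The summed Trav log2 ratio of 0.42 ran from 0.31 to 0.53 on leaving out a library and was -0.15 relative to Trac, which is itself higher in the TNFR2-deficient libraries. The summed Traj log2 ratio of -2.10 ran from -2.32 to -1.71 on leaving out a library, the latter without TNFR2 positive library 1. Over the Traj segments that passed the filter it was -3.07. Those segments passed through the TNFR2 positive libraries and had to differ. Nothing is read from that value or from the counts of filtered Traj calls. The difference of 12.3 percentage points in the Traj61 to Traj49 share was 6.58 without the most abundant segment of each group and ran from 11.6 to 13.2 on leaving out a library. That of 12.3 in the mean Traj number was 9.83 without the most abundant segments and ran from 11.7 to 12.6. The difference of -3.93 percentage points in the nearest Trav segments was -1.33 over the nearer 50% and ran from -4.81 to -2.96. Where no reason is given, the cause was not tested. Near-zero log2 fold changes of uncalled segments changed sign. For Trav14d-1 (0.03) they were -0.00066 with DESeq2 and -0.0010 with RLE, with -0.13 to 0.13 on leaving out a library, and for Trav14n-1 (0.07) that range was -0.13 to 0.21. For Trav7-2 (0.0075) they were -0.024 with DESeq2, -0.0065 with limma-voom, -0.025 with RLE, -0.0058 with library size alone, -0.0057 with the 1 CPM filter and -0.00068 with the replicate block, and -0.14 to 0.13 on leaving out a library. For Trav7d-2 (0.0077) they were -0.024, -0.0033, -0.024, -0.0058 and -0.0055 in the first 5 of these settings, and -0.14 to 0.13. The replicate numbers did not pair the samples: deviations of same-numbered libraries correlated at 0.037, 0.054 and -0.061, and not every library correlated best with its own number. With the replicate number as a block 14 Trav segments were higher and 4 Traj segments lower. Depth limits the Traj results: no Traj segment reached 10 counts in a TNFR2-deficient library.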
